A study of Mus musculus with 16 samples.

Results

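10 mouse genes for transcription factors of effector, tissue-resident and exhausted CD8+ T cells were followed: Tbx21, Eomes, Zeb2, Runx3, Prdm1, Zfp683, Bhlhe40, Nfil3, Tox and Tox2. They were chosen by name, as 10 of the 54532 genes in the count table. All 10 had reads. Naive CD8+ T cells from spleens of C57BL/6J mice were activated repeatedly in culture over 4 days to give TCF1+CD8+ T cells, a model of the stem-like T cell made without tumour or host. The cells then received the lipid mediator PGE2 at 100 ng/ml for 1 h or none, and spent a further 4 h in a low dose of IL-2 (85 U/ml), to which aCD3/CD28 beads were added for stimulation at 1 per cell. The 4 groups were unstimulated untreated cells (IL-2 only), unstimulated cells with PGE2, stimulated untreated cells (IL-2 and beads) and stimulated cells with PGE2, so that no group was without IL-2. Each group had 4 replicates, 16 samples in all. Neither the labels nor the methods say whether these came from separate mice, and p-values measure the spread between these samples.

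These factors sit downstream of the T cell receptor and of cytokine receptors. T-bet (Tbx21) and Eomes are related T-box proteins that switch on cytotoxic and interferon-gamma genes, and Zeb2 is a repressor that acts with T-bet in terminal effector cells. Runx3 keeps the CD8 lineage and prepares both effector and resident cells. Blimp-1 (Prdm1) and its relative Hobit (Zfp683) are zinc-finger repressors that shut down the genes for leaving tissue, Bhlhe40 supports cytokine production and the metabolism of resident cells, and Nfil3 is a basic leucine zipper factor of innate and T lymphocytes. Tox and Tox2 are high-mobility-group proteins tied to T cell exhaustion. Prostaglandin E2 signals in T cells through receptors that raise cAMP.

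On GRCm38, the T-box genes lie apart, Tbx21 (ENSMUSG00000001444) on chromosome 11 from 97098071 to 97115331 on the minus strand and Eomes (ENSMUSG00000032446) on chromosome 9 from 118478212 to 118486132 on the plus strand. The file places Zeb2 (ENSMUSG00000026872) on chromosome 2 from 44983632 to 45117395 on the minus strand and Runx3 (ENSMUSG00000070691) on chromosome 4 from 135120652 to 135177990 on the plus strand. Of the Blimp-1 pair, it has Prdm1 (ENSMUSG00000038151) on chromosome 10 from 44437177 to 44528501 on the minus strand and Zfp683 (ENSMUSG00000049410) on chromosome 4 from 134053838 to 134058996 on the plus strand. It has Bhlhe40 (ENSMUSG00000030103) on chromosome 6 from 108660629 to 108666925 on the plus strand and Nfil3 (ENSMUSG00000056749) on chromosome 13 from 52967209 to 52981073 on the minus strand. The exhaustion factors are Tox (ENSMUSG00000041272) on chromosome 4 from 6686353 to 6991557 on the minus strand and Tox2 (ENSMUSG00000074607) on chromosome 2 from 163203125 to 163324170 on the plus strand. All are protein-coding, and counts were summed over their exons, untranslated exons included.

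The upstream sequence of 3 of the factors is shown because their transcripts fell with PGE2 in at least 1 comparison and RefSeq gives a promoter window for them. RefSeq windows of GRCm38.p6, with 250 bases before and 50 after a start site, were matched for 7 of the 10 genes, in 15 windows. Each line below holds the 250 bases before the start, read 5′ to 3′ on the strand of the gene, and capitals mark motif matches on either strand. The stretches are chr11:97115332-97115581 on the minus strand, chr9:118477939-118478188 on the plus strand and chr10:44458749-44458998 on the minus strand.
Tbx21: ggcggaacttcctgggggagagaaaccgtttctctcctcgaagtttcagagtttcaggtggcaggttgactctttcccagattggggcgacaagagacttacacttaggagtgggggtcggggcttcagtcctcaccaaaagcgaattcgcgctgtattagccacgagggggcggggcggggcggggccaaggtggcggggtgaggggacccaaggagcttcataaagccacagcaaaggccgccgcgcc
Eomes: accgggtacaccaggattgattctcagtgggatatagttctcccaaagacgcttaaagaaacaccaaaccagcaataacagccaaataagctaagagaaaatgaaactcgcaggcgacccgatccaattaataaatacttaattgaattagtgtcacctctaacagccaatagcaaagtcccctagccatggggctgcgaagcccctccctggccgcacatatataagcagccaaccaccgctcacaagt
Prdm1: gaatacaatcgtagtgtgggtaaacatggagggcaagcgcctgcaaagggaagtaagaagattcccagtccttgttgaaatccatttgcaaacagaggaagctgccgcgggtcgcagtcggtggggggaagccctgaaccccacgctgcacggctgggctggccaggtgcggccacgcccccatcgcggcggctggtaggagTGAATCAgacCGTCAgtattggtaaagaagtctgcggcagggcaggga
The motifs searched on both strands were TGACGTCA (the full cAMP response element), TGACG (its shorter core, which lies within the full element), TGANTCA (AP-1), GGAAAA (the NFAT core), CACGTG (the E-box bound by Bhlhe40) and TGTGGT (Runx). In the Prdm1 window, TGACG lay at position -38 from the start and TGANTCA at -48, motifs that 20.8% and 7.81% of the 32851 RefSeq windows also held. This RefSeq start lies inside the gene as annotated for the counts, downstream of its first annotated start. None of the 6 motifs was found in the windows of Tbx21 and Eomes, the full element was in no member's window, and a match or its absence says only which letters are there. Runx3 held TGTGGT at -134 and -126 in 1 of its windows (16.8% of all windows hold it), and Nfil3 held TGACG at -59. Of the 4 windows of Zeb2, windows 2 and 3 held TGACG and GGAAAA and window 4 held TGANTCA at -189 and -132, and of the 5 windows of Tox2, window 3 held TGACG and windows 4 and 5 held GGAAAA.

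Samples had 22678254 to 42950763 counts, and replicates varied beyond counting noise, with a chi-square per degree of freedom of 8.08 to 53.6. The labelled cell type was checked on fixed markers. The summed level of 6 CD8 T cell genes was 2454 to 4460 CPM (reads per 1000000 reads of the scaled library), that of 3 NK cell genes at most 0.0999 CPM, with Ncr1 and Klra8 at 0 in all 16 samples, and that of 3 CD4 T cell genes 4.998 to 10.2 CPM. Of the CD4 T cell genes, Foxp3 had 3.085 to 9.066 CPM, Cd4 at most 1.873 CPM and Cd40lg 0.2205 to 4.554 CPM. Sums were 4.40 to 20.3 CPM for 4 B cell genes, 3.04 to 6.57 CPM for 5 myeloid genes and at most 0.821 CPM for 3 erythroid genes. Cd8a, a chain of the CD8 receptor, fell with PGE2 by 0.42 on the log2 scale in stimulated (edgeR adjusted p = 0.00594) and 0.44 in unstimulated cells (adjusted p = 2.82e-04), and Cd8b1, the other chain, by 0.25 (adjusted p = 0.0296) and 0.34 (adjusted p = 0.0180). Tcf7, the gene of TCF1, rose by 0.41 in stimulated cells (adjusted p = 0.0317), and the B cell gene Cd79b fell by 0.50 in unstimulated cells (adjusted p = 0.0224). The part of these shifts in the results below was not tested. Levels below are CPM scaled with TMM factors over the 16 samples. Tests are edgeR's quasi-likelihood tests, 4 samples against 4, with Benjamini-Hochberg adjustment over all genes tested. A gene was called at an adjusted p below 0.05, and called a DEG where the fold was also at least 2. 9 members passed the filter on low counts in every comparison. Tox2 did not, with 2 to 12 reads per sample. Bulk RNA cannot tell fewer cells expressing a gene from less RNA per cell, and this holds for every member.

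**Figure D1:**
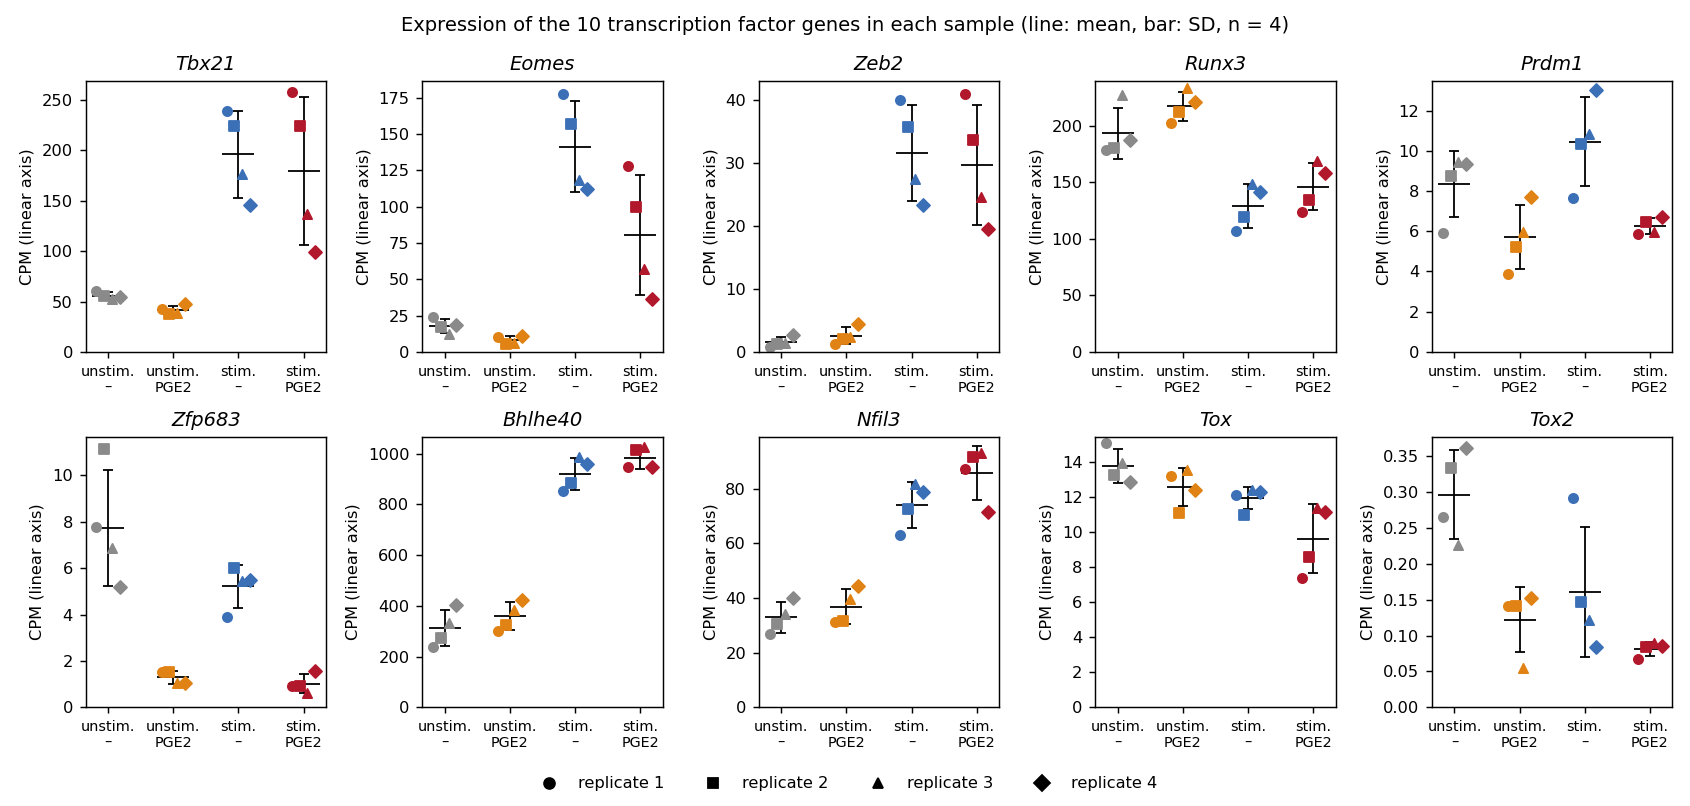
Level of each of the 10 genes in CPM (linear axis from 0) in the 16 samples, with the mean (line) and SD (bar) of the 4 replicates of each group; symbols mark the replicate number. Zfp683 is below 1.6 CPM in every PGE2 sample and above 3.8 CPM in every untreated one, and Tbx21, Eomes, Zeb2, Bhlhe40 and Nfil3 are higher in every stimulated sample than in any unstimulated one.

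The comparison of PGE2 with untreated cells asks how the lipid changes the transcriptome of TCF1+CD8+ T cells in either state. With PGE2, transcripts of Zfp683 fell about 5-fold in stimulated and about 6-fold in unstimulated cells. Prdm1 fell in stimulated cells, and Eomes and Tbx21 fell in unstimulated cells. No member rose in these fits. In stimulated cells 2 of the 9 tested members were called, both lower, where 9.84% of 13922 genes were called, 6.04% higher and 3.8% lower. In unstimulated cells 3 of 9 were called, all lower, where 28.4% of 14505 genes were called, 12.9% higher and 15.5% lower. The median log2 fold change of the 9 members was -0.12 in stimulated cells and -0.11 in unstimulated cells, against -0.01 and 0.00 over all genes tested.

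Samples with the same replicate number deviated together in both PGE2 comparisons, so values with the replicate number as a block are given where they change a call. With the block, 5 members were called in stimulated cells, 4 lower and 1 higher, and 8 in unstimulated cells, 4 lower and 4 higher. Over all genes the block also raised the number called, from 1370 to 5544 in stimulated cells and from 4122 to 6938 in unstimulated cells.

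The level of Zfp683, the gene of Hobit, in stimulated untreated cells was 3.89, 6.02, 5.45 and 5.49 CPM in replicates 1 to 4, and with PGE2 it was 0.941, 0.921, 0.624 and 1.58 CPM. In unstimulated cells it was 7.76, 11.1, 6.87 and 5.21 CPM without and 1.55, 1.52, 1.07 and 1.04 CPM with PGE2. Every treated sample was therefore below every untreated sample in both states, and the treated samples rested on 21 to 54 reads each. The gene fell by 2.37 on the log2 scale in stimulated cells (SE 0.269, adjusted p = 7.74e-04) and by 2.56 in unstimulated cells (SE 0.244, adjusted p = 2.72e-05), and was a DEG in both. It was the only DEG among the members in stimulated cells, where 1.75% of all genes tested were DEGs, and 1 of 2 in unstimulated cells, where 3.38% were. Both calls held in all 17 alternatives tried for each.

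Prdm1, the gene of Blimp-1, had 7.68, 10.3, 10.8 and 13.01 CPM in the stimulated untreated replicates and 5.85, 6.45, 5.97 and 6.71 CPM in those with PGE2. The groups did not overlap, which was so for 17.9% of all genes tested. The treated samples lay within a range of 1.15-fold, while the untreated ones spanned 1.69-fold. Prdm1 fell by 0.74 on the log2 scale (SE 0.160, adjusted p = 0.0198, lower in 4 of 4 numbers), a 1.67-fold difference. The adjusted p was 0.0580, 0.0552 and 0.0668 without stimulated untreated replicate 2, stimulated untreated replicate 3 or stimulated PGE2 replicate 3. In unstimulated cells the level was 5.91, 8.72, 9.43 and 9.34 CPM without PGE2 and 3.87, 5.24, 5.98 and 7.69 CPM with it. These groups overlapped only through the untreated replicate 1, and the difference of -0.53 did not pass the test (95% interval -0.997 to -0.06, adjusted p = 0.0881). Within each replicate number the PGE2 sample was the lower one, by -0.74 to -0.28 on the log2 scale, and with the block Prdm1 was called at -0.54 (adjusted p = 3.24e-04). It was also called without unstimulated untreated replicate 1 (adjusted p = 0.0335) and without unstimulated PGE2 replicate 4 (adjusted p = 0.0247), as well as without the filter (adjusted p = 0.0456) and in the fit of all 16 samples (adjusted p = 0.0473).

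**Figure D2:**
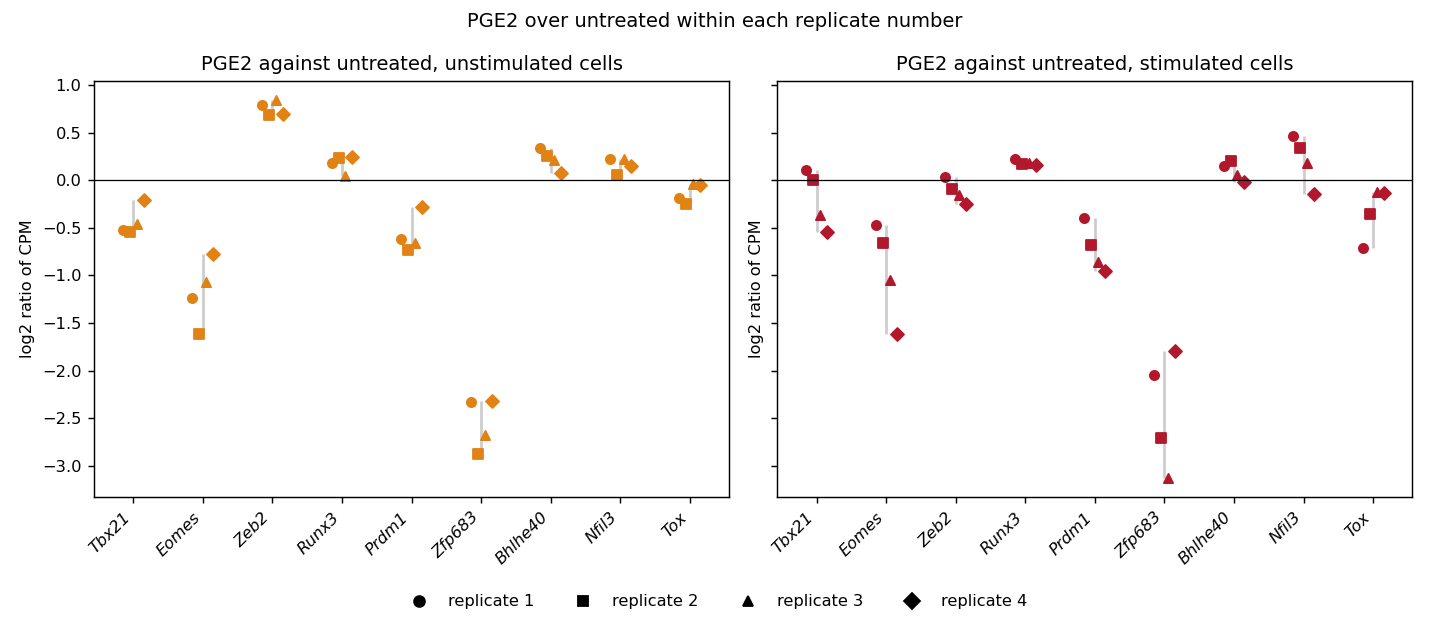
Difference between the PGE2 and the untreated sample of the same replicate number, as the log2 ratio of CPM, for the 9 tested factors in unstimulated (left) and stimulated cells (right); each symbol is 1 of the 4 numbers and the grey line spans them. Zfp683, Eomes, Prdm1 and Tox lie below 0 and Runx3 above 0 in all 4 numbers of both states.

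Eomes showed the widest spread among treated stimulated samples. Its level there was 128, 99.7, 57.4 and 36.4 CPM in replicates 1 to 4, a range of 3.52-fold, against 178, 157, 118 and 112 CPM in stimulated untreated cells. The groups overlapped, as the PGE2 sample of replicate 1 lay above the untreated samples of replicates 3 and 4. The difference was -0.81 on the log2 scale with a 95% interval of -1.54 to -0.07 and did not pass the test (adjusted p = 0.151). In every replicate number the PGE2 sample was lower, by -1.62 to -0.47, and with the block Eomes was called at -0.91 (adjusted p = 6.68e-04). Without stimulated PGE2 replicate 1 it was called too, at -1.13 (adjusted p = 0.0364).

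In unstimulated cells, Eomes had 24.1, 17.1, 12.3 and 18.7 CPM without PGE2 and 10.2, 5.55, 5.87 and 10.9 CPM with it. All 4 treated samples were below all 4 untreated ones, as was the case in either direction for 28.9% of all genes tested. Eomes fell by 1.13 on the log2 scale (SE 0.242, adjusted p = 0.00495), a 2.18-fold difference, and was a DEG. This call held in all 17 alternatives. Eomes shares 2.84% of its exon bases with Gm33460 on the opposite strand, which averaged 0.787 CPM.

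Tbx21 fell in unstimulated cells by 0.41 on the log2 scale (SE 0.0768, adjusted p = 0.00225). The level was 60.8, 55.1, 52.8 and 54.4 CPM without and 42.4, 37.7, 38.4 and 47.1 CPM with PGE2, and the groups did not overlap. The call was lost in the fit of all 16 samples, which share 1 estimate of the spread (adjusted p = 0.181). In stimulated cells Tbx21 had 239, 224, 176 and 146 CPM without PGE2 and 258, 224, 137 and 99.4 CPM with it. These samples overlapped widely, with the treated sample higher in replicate 1 and lower in replicates 3 and 4. The difference was -0.12 (95% interval -0.73 to 0.49, adjusted p = 0.805), and it was 0.08 without stimulated PGE2 replicate 4.

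Zeb2 was weakly expressed in unstimulated cells. It had 0.750, 1.26, 1.35 and 2.74 CPM without PGE2 and 1.30, 2.03, 2.42 and 4.43 CPM with it, from 17 to 174 reads. The groups overlapped, since each spanned more than 3-fold between its lowest and highest replicate. The difference of 0.75 on the log2 scale did not pass the test (95% interval -0.16 to 1.66, adjusted p = 0.211). Within replicate numbers the treated sample was higher each time, by 0.68 to 0.84, and with the block Zeb2 was called at 0.77 (adjusted p = 0.00107). The 5 myeloid markers summed to 3.04 to 4.70 CPM in untreated and 3.87 to 6.57 CPM in treated unstimulated cells, with Cd68 at 2.65 CPM or more and Lyz2 at 0 in 14 of 16 samples, and their part in the Zeb2 level was not tested. In stimulated cells Zeb2 differed by -0.08 (95% interval -0.60 to 0.43, adjusted p = 0.839).

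Runx3 was slightly higher with PGE2 in every replicate number of both states, by 0.16 to 0.22 in stimulated and by 0.04 to 0.24 in unstimulated cells on the log2 scale. Its level was 107, 119, 148 and 142 CPM in stimulated untreated cells and 124, 134, 169 and 158 CPM with PGE2. The unblocked difference was 0.19 in both states and did not pass the test (adjusted p = 0.374 stimulated, 0.142 unstimulated). With the block it was called in both, at 0.19 (adjusted p = 0.00338) and 0.19 (adjusted p = 6.27e-04). Unstimulated Runx3 was also called without the untreated replicate 3, at 0.28 (adjusted p = 0.0187), whose 227 CPM stood above the 179 to 187 CPM of the other untreated samples.

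Bhlhe40 and Nfil3 did not pass the unblocked test with PGE2 in either state. Bhlhe40 differed by 0.10 in stimulated cells (95% interval -0.06 to 0.26, adjusted p = 0.383) and by 0.23 in unstimulated cells (-0.12 to 0.57, adjusted p = 0.328). Nfil3 differed by 0.22 (-0.02 to 0.46, adjusted p = 0.224) and 0.18 (-0.14 to 0.50, adjusted p = 0.393). Both were higher with PGE2 in 4 of 4 numbers in unstimulated cells, where the block called Bhlhe40 at 0.24 (adjusted p = 1.27e-04) and Nfil3 at 0.18 (adjusted p = 0.00730). In stimulated cells both were higher in 3 of 4 numbers and lower in replicate 4.

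Of the exhaustion factors, Tox had 12.1, 10.98, 12.4 and 12.3 CPM in stimulated untreated cells and 7.36, 8.58, 11.4 and 11.1 CPM with PGE2. Replicates 1 and 2 of the treated group were low, and the other treated samples lay within the untreated range. The difference of -0.30 did not pass the test (95% interval -0.63 to 0.02, adjusted p = 0.206), and was called with the block at -0.33 (adjusted p = 0.0258). In unstimulated cells it was -0.11 (-0.31 to 0.09, adjusted p = 0.415). Tox2 was near the limit of detection, at 0.225 to 0.361 CPM in unstimulated untreated cells, 0.0551 to 0.153 CPM in unstimulated cells with PGE2 and 0.291 CPM or less in stimulated cells. Its 6 to 12 reads in unstimulated untreated samples stood beside 2 to 6 with PGE2, so the read counts met at 6. Only after scaling to CPM did these groups not overlap. That was so for 28.9% of the genes tested, all of which passed the filter that Tox2 did not pass. Tested without the filter, its difference was -1.24 in unstimulated cells (95% interval -2.34 to -0.13, unadjusted p = 0.0297, adjusted p = 0.145) and -1.004 in stimulated cells (-2.38 to 0.37, adjusted p = 0.468). Neither passed the adjusted test with the block, an alternative chosen after seeing the data, where the values were -1.27 (adjusted p = 0.133) and -0.92 (adjusted p = 0.644).

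**Figure D3:**
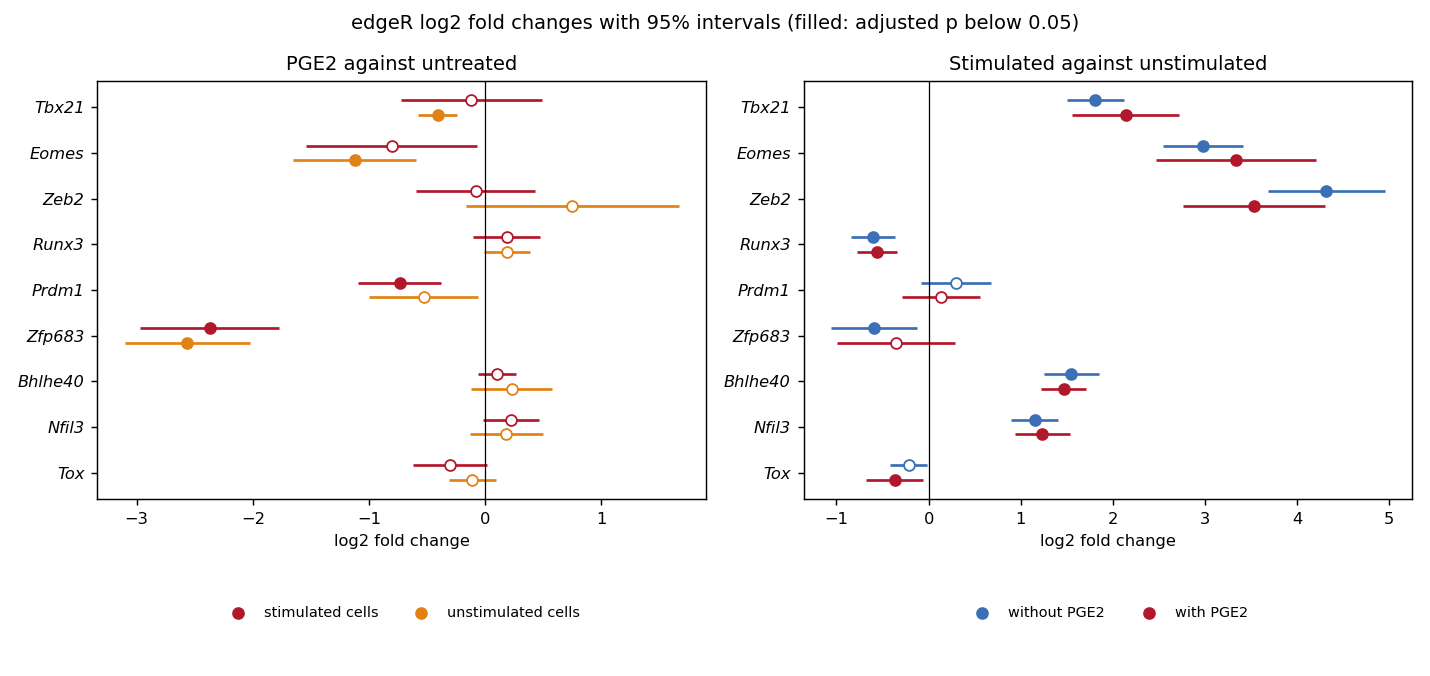
Log2 fold changes (horizontal axis) of the 9 tested factors with 95% intervals, for PGE2 against untreated cells (left) and stimulated against unstimulated cells (right); filled points have an adjusted p below 0.05 in the fits without a block. The intervals of Zfp683 with PGE2 end at -1.77 in stimulated and at -2.03 in unstimulated cells, and those of Tbx21, Eomes and Zeb2 with stimulation start at 1.498, 2.54 and 3.68 without PGE2.

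The comparison of stimulated with unstimulated cells shows what 4 h of CD3 and CD28 engagement did on top of IL-2. Without PGE2, Zeb2 rose 19.9-fold, Eomes 7.85-fold, Tbx21 3.50-fold, Bhlhe40 2.92-fold and Nfil3 2.22-fold, while Runx3 fell 1.52-fold and Zfp683 1.505-fold. With PGE2 the same 5 genes rose, Zeb2 11.6-fold, Eomes 10.1-fold, Tbx21 4.40-fold, Bhlhe40 2.77-fold and Nfil3 2.35-fold, and Runx3 fell 1.47-fold. Stimulation was a broad change in these cells. 7 of 9 members were called without PGE2, 5 higher and 2 lower, where 66.5% of 14205 genes were called, 31.7% higher and 34.8% lower. With PGE2, 7 of 9 were called, again 5 higher and 2 lower, where 64.2% of 14507 genes were called, 32.5% higher and 31.7% lower. Stimulated and unstimulated samples did not overlap for 7 members without PGE2 (61.6% of all genes) and 6 with PGE2 (60.2%). 5 were DEGs in each case, against 23.2% and 22.1% of all genes. The share of called members was thus close to the background.

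Zeb2 went from 0.750 to 2.74 CPM to 39.9, 35.7, 27.4 and 23.2 CPM in replicates 1 to 4 on stimulation without PGE2, and from 1.30 to 4.43 CPM to 40.9, 33.5, 24.5 and 19.6 CPM with it. The increase was 4.32 on the log2 scale without PGE2 (SE 0.292, adjusted p = 8.79e-08) and 3.53 with PGE2 (SE 0.349, adjusted p = 8.99e-06). Replicate 1 had the lowest unstimulated and the highest stimulated level of Zeb2 in both treatments, and replicate 4 the reverse, so the ratio within a number ran from 3.08 to 5.73 without PGE2 and from 2.14 to 4.98 with it. The 3 dendritic cell markers summed to 1.28 to 2.95 CPM in unstimulated and 2.79 to 5.24 CPM in stimulated samples, nearly all of it Xcr1, with Siglech at 0 in all 16 samples. Their part in the rise of Zeb2 was not tested.

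Eomes increased by 2.97 without PGE2 (SE 0.200, adjusted p = 8.44e-08) and by 3.33 with PGE2 (SE 0.394, adjusted p = 3.03e-05). Tbx21 increased by 1.81 (SE 0.142, adjusted p = 2.71e-07) and 2.14 (SE 0.265, adjusted p = 4.20e-05). In stimulated cells of both treatments Tbx21, Eomes and Zeb2 were all highest in replicate 1 and lowest in replicate 4. With PGE2 the increase of Eomes within a number ran from 1.74 in replicate 4 to 4.17 in replicate 2, while without PGE2 it stayed between 2.58 and 3.27.

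Bhlhe40 had 240, 272, 331 and 402 CPM in unstimulated untreated cells and 852, 886, 987 and 959 CPM after stimulation, and the groups were far apart. Its increase was 1.55 without PGE2 (SE 0.138, adjusted p = 7.40e-07) and 1.47 with PGE2 (SE 0.111, adjusted p = 2.21e-06). The spread of Bhlhe40 was small after stimulation, with a coefficient of variation of 6.81% without and 4.44% with PGE2, against 22.9% and 15.3% before. Nfil3 increased by 1.15 (SE 0.117, adjusted p = 2.40e-06) and 1.24 (SE 0.137, adjusted p = 1.91e-05), from 26.9 to 44.4 CPM over the unstimulated samples to 63.1 to 92.9 CPM over the stimulated ones.

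Runx3 had 179, 180, 227 and 187 CPM in unstimulated untreated cells and fell by 0.60 on the log2 scale on stimulation (SE 0.110, adjusted p = 3.40e-04). With PGE2 it fell by 0.56 (SE 0.0991, adjusted p = 5.10e-04), from 202 to 233 CPM down to 124 to 169 CPM. No stimulated sample reached the unstimulated range in either case. Zfp683 fell by 0.59 without PGE2 (SE 0.215, adjusted p = 0.0278), although the groups overlapped and replicate 4 went the other way. That call was lost without unstimulated untreated replicate 2 (adjusted p = 0.121), without stimulated untreated replicate 1 (0.0807) and with limma on log2 FPKM (0.0515 and 0.0516 at pseudocounts of 1 and 0.1). With PGE2 the difference of Zfp683 was -0.35 (95% interval -0.99 to 0.29, adjusted p = 0.309).

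Prdm1 differed by 0.29 on stimulation without PGE2 (95% interval -0.09 to 0.67, adjusted p = 0.158) and by 0.14 with PGE2 (-0.29 to 0.56, adjusted p = 0.551). Without PGE2 it was higher in 4 of 4 numbers and was called with the block at 0.31 (adjusted p = 0.0129), and also without stimulated untreated replicate 1 (adjusted p = 0.0350). Tox was lower in 4 of 4 numbers in both comparisons. It fell by 0.37 with PGE2 (SE 0.142, adjusted p = 0.0401), a call that did not hold with limma on log2(FPKM + 0.1) (adjusted p = 0.0516) or without any 1 of unstimulated PGE2 replicates 1, 3 and 4 or stimulated PGE2 replicates 1 and 2 (adjusted p = 0.0585, 0.0750, 0.0670, 0.102 and 0.0812). Without PGE2 its difference of -0.22 did not pass (adjusted p = 0.0549), and it was called with the block (adjusted p = 0.0266), with upper-quartile factors (adjusted p = 0.00967) and without unstimulated untreated replicate 4 (adjusted p = 0.0429).

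Whether PGE2 acted differently in the 2 states was tested as the interaction over all 16 samples. None of the 9 tested members was called, where 0.749% of 15096 genes were. No member had an unadjusted p below 0.05 with edgeR (0 of 9) or DESeq2 (0 of 9). The interval of Zeb2 was -1.84 to 0.21 around -0.82 on the log2 scale, that of Eomes -0.63 to 1.28 around 0.33 and that of Zfp683 -0.60 to 1.01 around 0.21. These intervals leave room for differences of 2-fold or more, so that the PGE2 effects on these genes were neither shown to differ nor to be alike.

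Levels of different genes were compared on the deposited FPKM values, which are scaled by gene length. That length joins the exons of all annotated transcripts. It is 19942 bases for Zeb2, with 29 transcripts, and 1471 to 7609 bases for the others. In CPM, Zeb2 averaged 31.6 in stimulated untreated cells, against 11.9 for Tox and 10.5 for Prdm1. The part of this length in the rank of Zeb2 was not tested. Bhlhe40 was the most abundant of the factors in every group, at 62.9 ± 14.2 FPKM (SD, n = 4) in unstimulated untreated, 73.4 ± 10.99 in unstimulated PGE2, 186 ± 9.02 in stimulated untreated and 199 ± 7.76 in stimulated PGE2 samples. In unstimulated untreated cells Runx3 (36.7 ± 4.17 FPKM), Tbx21 (21.3 ± 1.42) and Nfil3 (15.4 ± 2.57) followed, each separate from its neighbours. Zfp683 (5.01 ± 1.64) and Eomes (4.13 ± 1.13) overlapped, as did Tox (1.72 ± 0.125) and Prdm1 (1.42 ± 0.278), and Tox2 (0.0828 ± 0.0174) and Zeb2 (0.0727 ± 0.0404) came last. After stimulation of untreated cells, Tbx21 was the second at 75.2 ± 18.02 FPKM, ahead of Nfil3 (34.7 ± 3.23), Eomes (32.5 ± 7.93) and Runx3 (24.5 ± 3.21), which overlapped with their neighbours in that order. Prdm1 (1.78 ± 0.340), Zeb2 (1.51 ± 0.395) and Tox (1.49 ± 0.0718) also overlapped. Zfp683 ranked above Tox and Prdm1 in untreated cells and below both with PGE2 in each state, at 0.849 ± 0.181 FPKM in unstimulated and 0.656 ± 0.259 FPKM in stimulated cells, with samples that overlapped those of Prdm1 in both states. In stimulated PGE2 cells they also overlapped those of Tox, so these ranks are not separate.

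**Figure D4:**
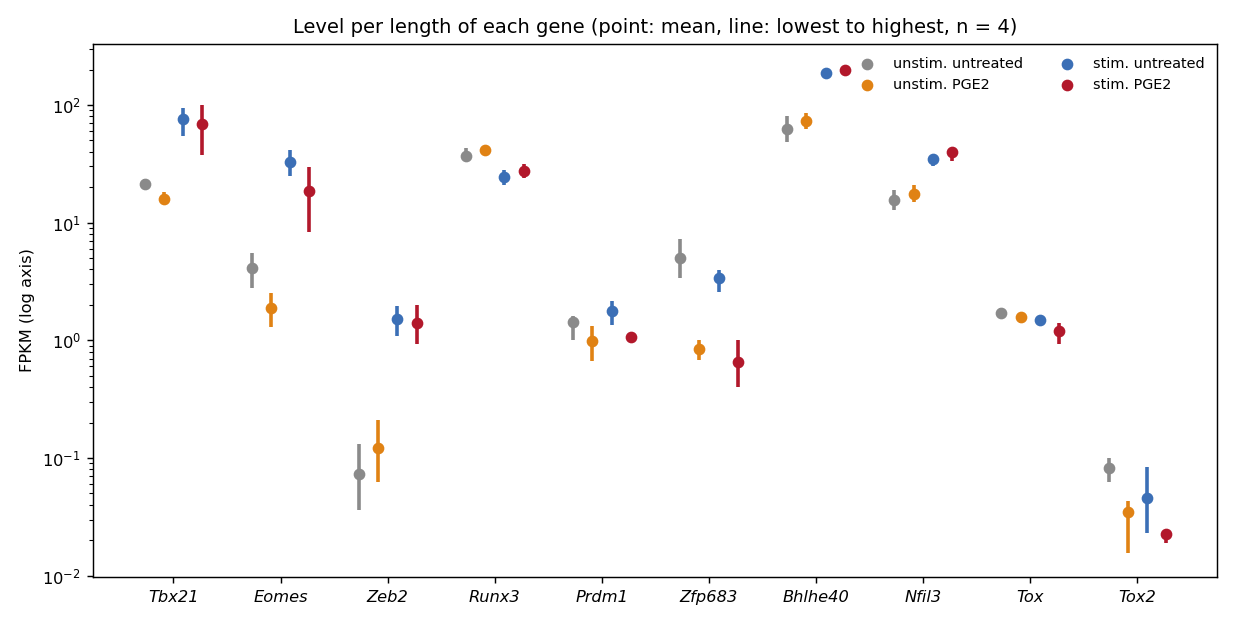
FPKM (log axis) of each factor in the 4 groups, with the mean as a point and the lowest to highest of 4 replicates as a line. Bhlhe40 is at the top in all groups at 62.9 to 199 FPKM on average, Zeb2 spans 0.0727 to 1.51 FPKM between unstimulated and stimulated untreated cells, and Tox2 stays below 0.11 FPKM in every sample.

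Genes around these factors were taken from 7 lists that were written by hand and leave out the members themselves. They were written with earlier results of these data known. The PGE2 counts below stand beside 9.84% of all genes called in stimulated cells (6.04% higher, 3.8% lower). In unstimulated cells the share was 28.4% (12.9% higher, 15.5% lower). With the block, 5544 of 13922 genes were called in stimulated and 6938 of 14505 in unstimulated cells. With 1 replicate left out, 630 to 1854 genes were called in stimulated and 3154 to 4133 in unstimulated cells. Among relatives and partners, Zeb1, the paralogue of Zeb2, rose with PGE2 by 0.99 in stimulated (SE 0.0807, adjusted p = 1.46e-04) and by 1.23 in unstimulated cells (SE 0.0874, adjusted p = 5.41e-06), from 75.9 ± 4.35 to 176 ± 23.6 CPM (SD, n = 4) in the latter. Runx2 rose in unstimulated cells by 0.49 (adjusted p = 0.00564). Of the 8 tested relatives, 2 were called in each state, 1 higher and 1 lower in stimulated and both higher in unstimulated cells. With the block 4 were called in unstimulated cells, 3 higher and 1 lower. In stimulated cells only 1 was called without any 1 of untreated replicates 2, 3 and 4 or PGE2 replicates 3 and 4. The one that was lower in stimulated cells, Hlf, averaged less than 1 CPM and is named after its value was seen (-2.15, adjusted p = 0.0298).

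Of 15 tested genes of the effector program, 4 rose and 5 fell with PGE2 in each state. Gzmb, which encodes granzyme B, fell by 0.91 in stimulated cells (SE 0.0684, adjusted p = 1.09e-04), from 5301 ± 203 to 2810 ± 155 CPM (SD, n = 4). The chemokine Ccl3 fell by 1.98 in stimulated cells (adjusted p = 0.0345), a call that held in 12 of 17 alternatives with an adjusted p of up to 0.0960. In unstimulated cells Ccl4 fell by 2.08 (adjusted p = 0.00408) and Ifng by 2.05 (adjusted p = 0.0431), the last held in 9 of 17 alternatives with an adjusted p of up to 0.180. Fasl, the death ligand, rose by 1.49 in stimulated (adjusted p = 0.00191) and 1.88 in unstimulated cells (adjusted p = 5.31e-05). Il12rb2 was also called higher, but 40.0% of its exon bases overlap Serbp1 on the opposite strand, which averaged 1010 CPM, and its counts are uncertain because the use of strand is not given. The median log2 fold change of the list was -0.40 in stimulated and -0.19 in unstimulated cells. With the block 15 genes were called in stimulated cells, 5 higher and 10 lower, and without unstimulated PGE2 replicate 2 the count in unstimulated cells was 5, 3 higher and 2 lower.

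Of 13 tested genes of the residency program, 3 fell and none rose in stimulated cells, while 5 fell and 2 rose in unstimulated cells, with medians of -0.59 and -0.45. Itgae, which encodes the integrin CD103, fell by 0.93 (SE 0.0589, adjusted p = 4.44e-05) and 1.08 (SE 0.0773, adjusted p = 5.63e-06). Cdh1, the gene of the CD103 ligand E-cadherin, fell by 1.85 (adjusted p = 5.55e-04) and 1.18 (adjusted p = 3.46e-04). Its level was low, from 2.89 to 0.794 CPM in stimulated and from 5.23 to 2.30 CPM in unstimulated cells. The PGE2 samples held 17 to 28 and 72 to 87 reads. Rgs2, a brake on G-protein signalling, rose by 1.89 in unstimulated cells (adjusted p = 1.80e-04), and Rgs1 by 0.38 (adjusted p = 0.0409), which held in 9 of 17 alternatives with an adjusted p of up to 0.165. With the block 10 genes were called in stimulated cells, 2 higher and 8 lower. Without stimulated PGE2 replicate 1 the count there was 6, all lower, where the genes called over all went from 1370 to 1854. Without unstimulated PGE2 replicate 2 the count in unstimulated cells was 4, 1 higher and 3 lower, where those over all went from 4122 to 3166.

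Of the 8 genes of egress and homing, 7 rose in stimulated cells and 3 in unstimulated cells, and none fell. The median of the list was 0.87 in stimulated cells against -0.01 for all genes tested. This is a description only, since the list was written with earlier results of these data known. The lymph node homing receptor Ccr7 rose by 1.41 (adjusted p = 0.00153) and 0.63 (adjusted p = 1.42e-05), and S1pr1, the receptor for leaving tissue, by 1.09 in stimulated cells (adjusted p = 3.60e-04). Il7r rose by 0.24 in unstimulated cells (adjusted p = 0.00756), a call lost in the fit of all 16 samples (adjusted p = 0.321). With the block, 7 were called in unstimulated cells, 6 higher and 1 lower.

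**Figure D5:**
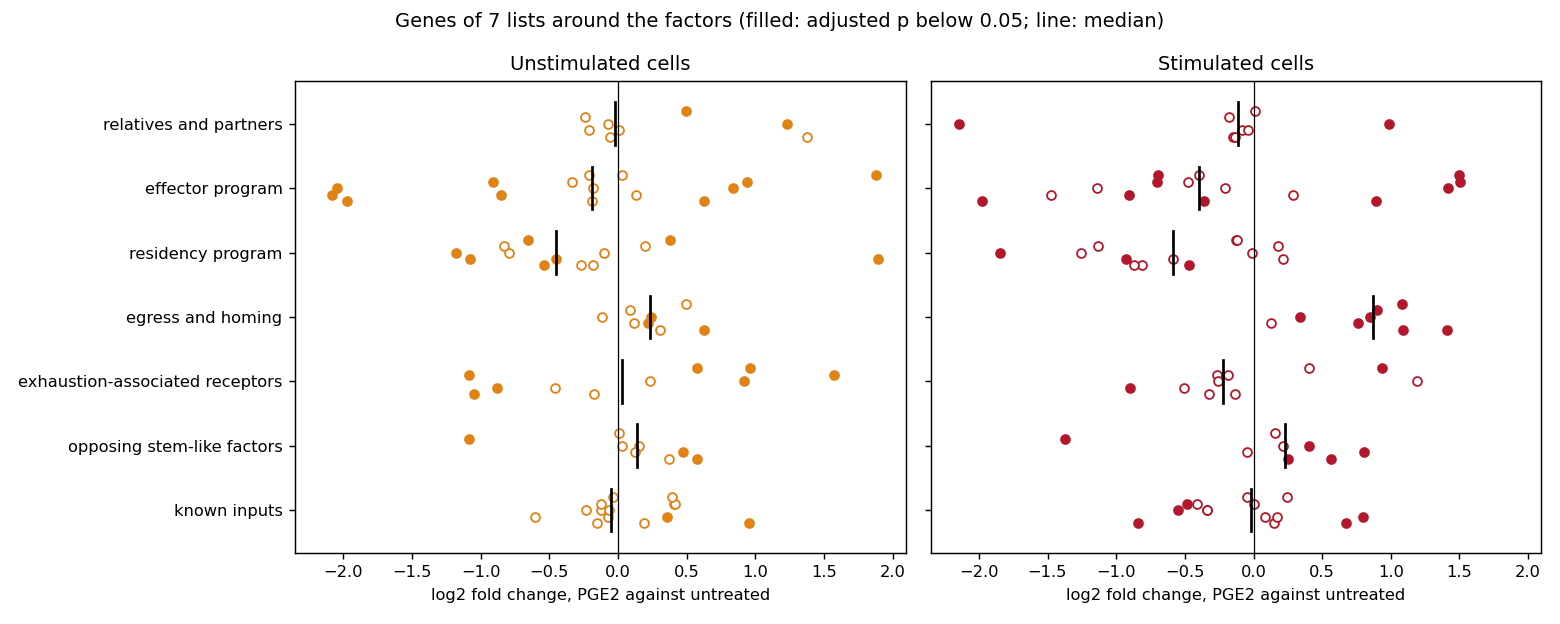
Log2 fold changes with PGE2 (horizontal axis) of the tested genes of the 7 lists in unstimulated (left) and stimulated cells (right), without the 10 factors; each point is a gene, filled at an adjusted p below 0.05, and the black line is the median of the list. In stimulated cells 7 of 8 genes of egress and homing are filled on the right of 0, and 3 of 13 genes of residency are filled, all on the left.

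Of 10 exhaustion-associated receptor genes, 1 rose and 1 fell in stimulated cells, Ctla4 by 0.93 (adjusted p = 0.0225) and Havcr2, which encodes TIM-3, by 0.90 (adjusted p = 0.0155). Each call held in 15 of 17 alternatives and was lost without stimulated untreated replicate 2 and without stimulated PGE2 replicate 3. In unstimulated cells 4 rose, among them Pdcd1, the gene of PD-1, by 1.58 (adjusted p = 0.00378) and Tigit by 0.96 (adjusted p = 0.00141), and 3 fell, among them Btla by 1.05 (adjusted p = 5.20e-06) and Cd160 by 0.88 (adjusted p = 7.76e-04). With the block 7 were called in stimulated cells, 3 higher and 4 lower. Without stimulated PGE2 replicate 1 the count was 4, 3 higher and 1 lower, where the genes called over all went from 1370 to 1854.

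Of the 8 opposing stem-like factors, 4 rose and 1 fell in stimulated cells, and 2 rose and 1 fell in unstimulated cells. Bach2, a repressor of effector genes, rose by 0.56 (adjusted p = 0.00134) and 0.58 (adjusted p = 1.30e-04), Satb1 by 0.80 in stimulated cells (adjusted p = 7.74e-04) and Bcl6 by 0.48 in unstimulated cells (adjusted p = 0.00298). Id3, an inhibitor of E proteins that is also in this list, fell by 1.37 (adjusted p = 3.24e-04) and 1.08 (adjusted p = 4.76e-04). With the block 6 were called in unstimulated cells, 5 higher and 1 lower. In stimulated cells 3 were called, 2 higher and 1 lower, without any 1 of the 4 untreated replicates or PGE2 replicates 3 and 4.

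Of 14 known inputs of the factors, 2 rose and 3 fell in stimulated cells and 3 rose and none fell in unstimulated cells. In unstimulated cells the shares called among inputs, opposing factors, relatives and egress and homing genes were near the 28.4% over all genes. The cytokine signal transducers Stat4 and Stat3 rose by 0.80 (adjusted p = 0.00723) and 0.67 (adjusted p = 0.00531) in stimulated cells, and Batf fell by 0.84 (adjusted p = 0.00176) and Nfatc1 by 0.55 (adjusted p = 0.0125). In unstimulated cells Stat3 rose by 0.95 (adjusted p = 0.00613) and Stat5b by 0.41 (adjusted p = 7.15e-04). With the block 9 were called in stimulated cells, 3 higher and 6 lower, and 11 in unstimulated cells, 6 higher and 5 lower. Without unstimulated PGE2 replicate 4 the count in unstimulated cells was 5, 3 higher and 2 lower.

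On stimulation without PGE2, where 66.5% of all genes tested were called, 31.7% higher and 34.8% lower, all 14 inputs were called, 11 higher and 3 lower, led by the orphan receptors Nr4a1 at 3.91 (adjusted p = 1.74e-08) and Nr4a3 at 3.46 (adjusted p = 3.33e-07), with Nfatc3 and Stat4 lowest at -1.18 and -0.81. Residency genes had 8 higher and 4 lower of 13, led by Xcl1 at 5.85 and Rgs16 at 4.60, with Itgae at -0.98 and Cdh1 at -0.89. Egress and homing had 7 lower and 1 higher of 8, with S1pr1 at -3.10 and Klf2 at -2.63, and with Cd27 at 0.22, a call that held in 11 of 17 alternatives. Effector genes had 7 higher and 5 lower of 15, with Ifng at 6.54, Ccl4 at 5.90, Klrd1 at -1.496 and Cxcr3 at -1.31. Exhaustion-associated receptors had 6 higher and 3 lower of 10, with Havcr2 at 2.85, Cd160 at 2.46, Entpd1 at -1.04 and Ctla4 at -0.52, the last lost without unstimulated untreated replicate 4 or stimulated untreated replicate 2. Of the opposing factors 6 of 8 fell, with Tcf7 at -1.94 and Lef1 at -1.64. The shares called among effector genes (12 of 15) and opposing factors (6 of 8) were near that over all genes. All 8 tested relatives were called, 5 higher and 3 lower, with Runx2 at 1.58, Tef at 0.63, Runx1 at -0.84 and Dbp at -1.37, where 18% of the exon bases of Dbp overlap Sphk2 on the opposite strand.

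For each tested factor, the 3 genes whose log2 CPM followed it most closely over the 16 samples were listed among 12352 genes. The points are 4 groups of samples in which 2 stimulation states dominate, so high values of r are common and describe only the shape of the pattern. For Zfp683 they were Tmem163 (r = 0.96), Mcm3 (0.957) and Igfbp4 (0.947), and for Prdm1 Nupr1 (0.908), Eno3 (0.893) and Bspry (0.880). Tmem163 averaged 2.03 CPM and shares 3.54% of its exon bases with Mgat5 on the opposite strand. Eomes was closest to Nup62, Insig1 and Hspa4 (0.993 to 0.994), Tbx21 to Psmc4, Wdr61 and Usp31 (0.993 to 0.996), where 33.9% of the exon bases of Wdr61 overlap Dnaja4, and Zeb2 to Tnfsf11, Ncs1 and Nr4a3 (0.993 to 0.997). Bhlhe40 was closest to Atf3, Dusp4 and Cnn3 (0.991 to 0.992), and Nfil3 to Cnn3, Bhlhe40 and Egln3 (0.984 to 0.989). Runx3 was closest to Zfp688, Grn and Gm45867 (0.980 to 0.982), where 9.19% of the exon bases of Gm45867 (1.62 CPM) overlap Tm6sf1 (25.4 CPM) on the same strand, and Tox to Bbc3, P4htm and Tfeb (0.897 to 0.907). Among the factors themselves, r was 0.989 for Bhlhe40 with Nfil3 and 0.978 for Tbx21 with Eomes, while Zfp683 had 0.633 with Prdm1 and -0.0436 with Tbx21.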

How the data were processed

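RNA-seq was analysed from 16 samples of TCF1+CD8+ T cells, 4 per group. Poly(A)-selected libraries were sequenced in paired-end mode. The authors aligned reads to GRCm38 with HISAT2 2.0.5 and counted them with featureCounts 1.5.0-p3. Raw read counts per gene were deposited, and the authors also deposited FPKM values, which were used for levels between genes and in limma. Strand setting and annotation release are not given in the sources used here. Coordinates and exons of the 10 genes in GENCODE M21 equal those of the count table.

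The 10 genes, the gene lists, the marker lists and the tests were chosen with earlier results of these data known. All 10 members are named. From each list, for both PGE2 comparisons and stimulation without PGE2, up to 2 called genes with the largest rise and up to 2 with the largest fall are named, at a mean of at least 1 CPM. Counts were tested with edgeR 4.0.16 in R 4.3.3 (filterByExpr with a minimum count of 10, TMM, glmQLFit and glmQLFTest, two-sided, Benjamini-Hochberg over all genes tested), in fits of the 8 samples compared or of all 16 for the interaction. SE was derived from the F statistic. Code was tested on simulated counts. The biological coefficient of variation was 0.115 to 0.139, so that spread between replicates limits precision more than depth, except for Tox2. Zfp683 had 21 to 54 reads per sample with PGE2. Its coefficient of variation with PGE2 was 21.2% in unstimulated and 39.6% in stimulated cells, so that depth and spread both limit it. Zeb2 had few reads in unstimulated cells (17 to 174), but its coefficient of variation there was 55.8% without and 52.6% with PGE2.

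Alternatives were DESeq2 1.42.0, upper-quartile or RLE scaling, a filter of 10 counts in each sample or none at all, limma 3.58.1 on log2(FPKM + 1) and log2(FPKM + 0.1) at a mean FPKM of at least 1, 1 fit of all 16 samples, the replicate block and each replicate left out. Replicate numbers come from the labels. The deviations from the group means of same-numbered samples correlated at 0.0439 to 0.444 over 24 pairs and those of other pairs at -0.385 to 0.250 over 72. Every same-numbered pair exceeded 0.1 in both PGE2 comparisons and in stimulation without PGE2. The main tests of these comparisons had no block, and values with the block are given beside them where they change a call.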

Additional observations from a re-analysis of the deposited data

Results flagged for a closer look

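In 2 of the 40 sets of 4 replicates tested, 1 sample stood apart from the other 3 by Dixon's test at the 95% level on log2 CPM, and chance alone flags about 1 set in 20. Prdm1 had 5.91 CPM in unstimulated untreated replicate 1, against 8.72 to 9.43 CPM in the other replicates. Without this sample the difference of Prdm1 between unstimulated PGE2 and untreated cells was -0.66 on the log2 scale (edgeR adjusted p = 0.0335). Tox2 had 0.0551 CPM in unstimulated PGE2 replicate 3, against 0.141 to 0.153 CPM in the other replicates, which is a difference between 2 reads and 4 to 6 reads.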

How the results depend on the processing

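Over the 9 tested members, 5 comparisons and all alternatives, 759 fold changes kept their direction and their side of the threshold, 19 passed it only in the alternative, 14 no longer passed it and 26 turned direction. The number of members called with PGE2 moved from 2 to 5 in stimulated and from 3 to 8 in unstimulated cells with the replicate block. With 1 replicate left out it lay at 1 to 3 and at 3 to 4. Over all genes, 5544 and 6938 were called with the block. With 1 replicate left out, 630 to 1854 and 3154 to 4133 of all genes were called. For stimulation with PGE2 and the interaction, values with the block are not given beside the results. There the replicate block left 7 and 0 members called, beside 9790 of 14507 and 408 of 15096 genes. In both PGE2 comparisons and in stimulation without PGE2 the block changed no call of a member other than those given with their results.

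All reversals were in differences that did not pass the test. With 1 replicate left out, PGE2 in stimulated cells gave -0.282 to 0.068 for Zeb2 and -0.35 to 0.08 for Tbx21, and stimulation with PGE2 gave -0.046 to 0.318 for Prdm1. In the interaction this gave -0.091 to 0.091 for Runx3, -0.061 to 0.146 for Nfil3, -0.262 to 0.002 for Bhlhe40 and -0.085 to 0.386 for Zfp683. The interaction of Runx3, 0.01 in the fit as designed, was -0.005 with DESeq2, -0.005 with RLE factors, -0.001 with upper-quartile factors, -0.022 without the filter, and -0.014 and -0.013 with limma at pseudocounts of 1 and 0.1, and that of Eomes was -0.07 with limma at a pseudocount of 1. The cause was not tested.

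Over all genes, PGE2 in stimulated cells called 1370 genes, but 2066 with DESeq2, 5544 with the block, 2161 in the fit of 16 samples and 630 to 1854 with 1 replicate left out. In unstimulated cells the block moved 4122 to 6938. The interaction called 113, but 234 with DESeq2, 408 with the block, 43 and 53 with limma, and 44 to 217 with 1 replicate left out. Upper-quartile factors moved the median of all genes on stimulation to -0.128 without and -0.125 with PGE2. Of the counts in gene lists, 548 stayed within 1.5 times and 96 did not. Depth limits Tox2 above all.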

Other observations

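Across the 7 lists, 5 genes were called in the interaction of PGE2 and stimulation, a set named after its values were seen. Rgs2 had -1.67 on the log2 scale (edgeR adjusted p = 0.00624), a call that held in all 24 alternatives tried. The other 4 were less stable. Btla had 0.74 (adjusted p = 0.0155; held in 21 of 24 alternatives, adjusted p up to 0.0829) and Pdcd1 -1.75 (adjusted p = 0.0316; 13 of 24, up to 0.0866). Batf had -0.67 (adjusted p = 0.0415; 10 of 24, up to 0.113) and Klf2, a factor that drives genes of egress, 0.83 (adjusted p = 0.0391; 8 of 24, up to 0.117). With each of the 16 samples left out in turn, Btla was lost only without unstimulated untreated replicate 2. Pdcd1 was lost in 9 cases, without unstimulated untreated replicate 2, unstimulated PGE2 replicates 3 and 4, and replicates 1, 2 and 3 of both stimulated groups. Batf was lost in 12 and held only without unstimulated PGE2 replicate 4, stimulated untreated replicate 4 or stimulated PGE2 replicates 3 and 4. Klf2 was lost in 13 and held only without unstimulated untreated replicate 4, unstimulated PGE2 replicate 1 or stimulated PGE2 replicate 4. Pdcd1 differed with PGE2 by -0.19 in stimulated cells (adjusted p = 0.259), where it rose by 1.58 in unstimulated cells (adjusted p = 0.00378).

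On stimulation with PGE2, the lists gave 8 higher and 5 lower of 15 effector genes, 8 higher and 2 lower of 13 residency genes, 7 lower of 8 egress and homing genes, 6 higher and 1 lower of 10 exhaustion-associated receptors, 1 higher and 5 lower of 8 opposing factors, 8 higher and 3 lower of 14 inputs, and 3 higher and 4 lower of 8 relatives. The edgeR test called 64.2% of all genes in that comparison.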
